A study of Mus musculus with 30 samples.

Results

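*Abcd2*, *Abcd3*, *Pex5*, *Pex11a*, *Pex11g*, *Pex16* and *Pex19* code for proteins of the peroxisomal membrane or of the machinery that builds peroxisomes, and their mRNA was followed in mouse liver. They are 7 of the 18820 genes measured here by a probe set that carries 1 gene symbol, and a gene was taken when that symbol was its own. Each of the 7 is read by a single probe set, so the 7 genes are 7 of the 35556 probe sets of the array. The mean of each of the 7 probe sets lay above the median of every array.

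Peroxisomes are single-membrane organelles in which very long chain and branched fatty acids are shortened by β-oxidation. Fatty acids reach the interior as CoA esters through transporters of the ABCD family, while enzymes are carried in by peroxins, the proteins that assemble, feed and divide the organelle. PPARα is a nuclear receptor that is activated by fatty acids in the fasted liver and is known for inducing peroxisomal genes in rodents. CREB3L3 is a transcription factor of the endoplasmic reticulum membrane that is released by cleavage and is abundant in hepatocytes.

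Livers came from male mice about 8 weeks old of 4 lines: wild-type C57BL/6 (WT), PPARα-/-, CREB3L3-/- and the combined PPARα/CREB3L3-/-. The deletions were present in the whole body, the CREB3L3-/- line had been backcrossed to C57BL/6, the PPARα-/- line to C57Bl/6J, and the combined line was bred from those. One set of each line was killed after 16 h without food. The other received a ketogenic diet, very high in fat and almost free of carbohydrate, over 4 days and was killed in the fed state, so the regimens differ in food intake as well as in diet and no chow-fed group was analysed here. Each group had 4 mice, except for 3 in both PPARα-/- groups, with 1 array per liver and 30 arrays in all. Array medians lay between 4.22 and 4.38, and arrays of a group correlated at 0.978 to 0.990. *Creb3l3* was between 9.49 and 11.28 in every array of the lines that carry the gene and between 4.29 and 5.36 in every array of the lines that lack it. *Ppara* was lower in PPARα-/- than in WT livers by 1.04 when fasted (not called, adjusted p = 0.0274) and by 2.87 on the diet (adjusted p = 2.22e-08). It was also lower in CREB3L3-/- than in WT livers on the diet, by 1.85 (adjusted p = 2.68e-06), which carry the gene. Whether the *Ppara* probe set lies in the deleted part is not given in the sources used here. RNA of whole liver was measured, so fewer cells of a type and less RNA per cell cannot be told apart.

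Promoter sequences of RefSeq genes on build GRCm38.p6 were at hand for 5 of the 7 genes, at 9 annotated starts, and are shown for 3: *Pex11g* and *Pex16*, which were lowest in CREB3L3-/- livers on the diet, and *Pex11a*, which was lowest in PPARα/CREB3L3-/- livers on the diet. Each runs 5′ to 3′ from 250 bases before the most upstream start to 10 bases after it. Capitals mark AGGTCA, the unit bound by nuclear receptors such as PPARα, or TGACG, the core of the cAMP response element, and its palindrome TGACGTCA, each searched on both strands.
*Pex11g*, chr8:3467639-3467898, minus strand: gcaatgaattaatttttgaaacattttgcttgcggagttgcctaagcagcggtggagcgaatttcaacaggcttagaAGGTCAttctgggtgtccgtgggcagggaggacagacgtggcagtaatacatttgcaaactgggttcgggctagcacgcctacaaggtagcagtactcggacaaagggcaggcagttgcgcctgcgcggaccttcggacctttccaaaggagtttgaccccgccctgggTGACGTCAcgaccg
*Pex16*, chr2:92374426-92374685, plus strand: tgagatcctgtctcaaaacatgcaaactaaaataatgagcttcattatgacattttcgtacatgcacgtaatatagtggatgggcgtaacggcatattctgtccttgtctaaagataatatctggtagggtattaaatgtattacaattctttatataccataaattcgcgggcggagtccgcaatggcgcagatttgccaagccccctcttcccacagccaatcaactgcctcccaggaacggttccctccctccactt
*Pex11a*, chr7:79743122-79743381, minus strand: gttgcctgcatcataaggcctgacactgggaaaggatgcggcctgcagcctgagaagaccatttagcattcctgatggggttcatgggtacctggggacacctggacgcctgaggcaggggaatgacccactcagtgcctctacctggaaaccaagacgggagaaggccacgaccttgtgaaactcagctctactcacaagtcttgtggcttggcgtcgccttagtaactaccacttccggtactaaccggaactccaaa

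The *Pex11g* window held 1 AGGTCA that begins at -173 relative to the start and 1 TGACGTCA that begins at -4, and the TGACG matches lie inside that palindrome. Neither motif was found in the *Pex16* and *Pex11a* windows. *Pex5* also had its lowest mean in CREB3L3-/- livers on the diet. Of the windows not shown, that of *Pex5* at its most upstream start held TGACG at -78 and -6. An *Abcd3* window at a start further downstream held it at -187. Among 32851 windows of the same length, 14.5% held AGGTCA, 18.8% TGACG and 1.67% TGACGTCA. A pair of AGGTCA copies with 1 base between them, the arrangement known for PPAR response elements, was in 0.0335% of these windows and in none of the 9 windows of the 7 genes. These are matches of letters in a short window and say nothing on binding.

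*Abcd2*, which carries very long chain and polyunsaturated fatty acyl-CoA into the peroxisome, varied more than any of the other 6 genes, with group means 5.16 apart on the log2 scale. In fasted WT livers the log2 intensities of *Abcd2* were 4.45, 4.03, 4.30 and 4.13. In WT livers on the ketogenic diet they were 9.18, 9.51, 9.47 and 9.38. The diet arrays thus sat far above the fasted ones, with a difference of 5.16 on the log2 scale (SE 0.29, adjusted p = 2.09e-11 by limma). The fasted WT arrays were at the level of the array medians (4.22 to 4.38), where these files do not tell signal from background, and *Abcd2* means in PPARα-/- livers (4.83 fasted, 4.48 on the diet) and in fasted PPARα/CREB3L3-/- livers (4.71) were the next nearest to it. Differences from these groups are given on the log2 scale, without a fold. 

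*Abcd2* did not reach this level in any knockout. On the ketogenic diet the PPARα-/- livers read 4.95, 4.22 and 4.28 of which 2 fell in the fasted WT range (4.03 to 4.45). CREB3L3-/- livers on the diet read 7.52, 7.14, 7.65 and 8.29, and PPARα/CREB3L3-/- livers 6.05, 6.00, 5.40 and 6.52. No array of a knockout on the diet overlapped WT. Against WT, *Abcd2* differed in PPARα-/- livers by -4.90 (SE 0.31, adjusted p = 1.46e-11). In PPARα/CREB3L3-/- livers the difference was -3.39 (SE 0.29, 10.5-fold, adjusted p = 7.93e-10), and in CREB3L3-/- livers -1.74 (SE 0.29, 3.33-fold, adjusted p = 2.15e-05). The combined knockout stood between the single ones, 1.51 (SE 0.31, adjusted p = 0.00777) above PPARα-/- and 1.66 (SE 0.29, adjusted p = 4.57e-05) below CREB3L3-/-.

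After the fast the order was another. CREB3L3-/- livers read 6.02, 6.63, 5.47 and 6.75 for *Abcd2*, all above every WT array. The difference from WT was 2.0 (SE 0.29, adjusted p = 0.000244). Fasted PPARα-/- livers, at 4.89, 4.66 and 4.93, were above WT by 0.60 (95% interval -0.04 to 1.24) and PPARα/CREB3L3-/- livers, at 4.45, 4.70, 4.13 and 5.57, by 0.49 (-0.10 to 1.08), and neither was called. Loss of CREB3L3 went with more *Abcd2* in the line that carries PPARα, and with a difference of -0.11 (-0.75 to 0.53) in its absence, and this contrast between the backgrounds was itself called, at -2.11 (SE 0.42, adjusted p = 0.0447).

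Ordered by mean, *Abcd2* was highest in WT on the diet (9.39 ± 0.15, SD, n = 4), followed by CREB3L3-/- on the diet (7.65 ± 0.48, n = 4) and fasted CREB3L3-/- (6.22 ± 0.59, n = 4). The arrays of fasted CREB3L3-/- overlapped those of PPARα/CREB3L3-/- on the diet (5.99 ± 0.46, n = 4). The remaining 4 groups, with means from 4.23 to 4.83, overlapped each with its neighbour. Since *Abcd2* is also expressed in fat, adipocyte markers were read beside it. The 6 adipocyte markers measured summed to 6.57 to 6.74 in WT on the diet, against 6.28 to 6.46 in fasted WT, and *Adipoq*, *Plin1*, *Lep*, *Retn* and *Cidea* had means below the array median in WT under both regimens. *Fabp4*, the remaining marker, was above it, at 5.19 to 5.30 in fasted WT and 5.68 to 6.00 in WT on the diet.

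**Figure D1:**
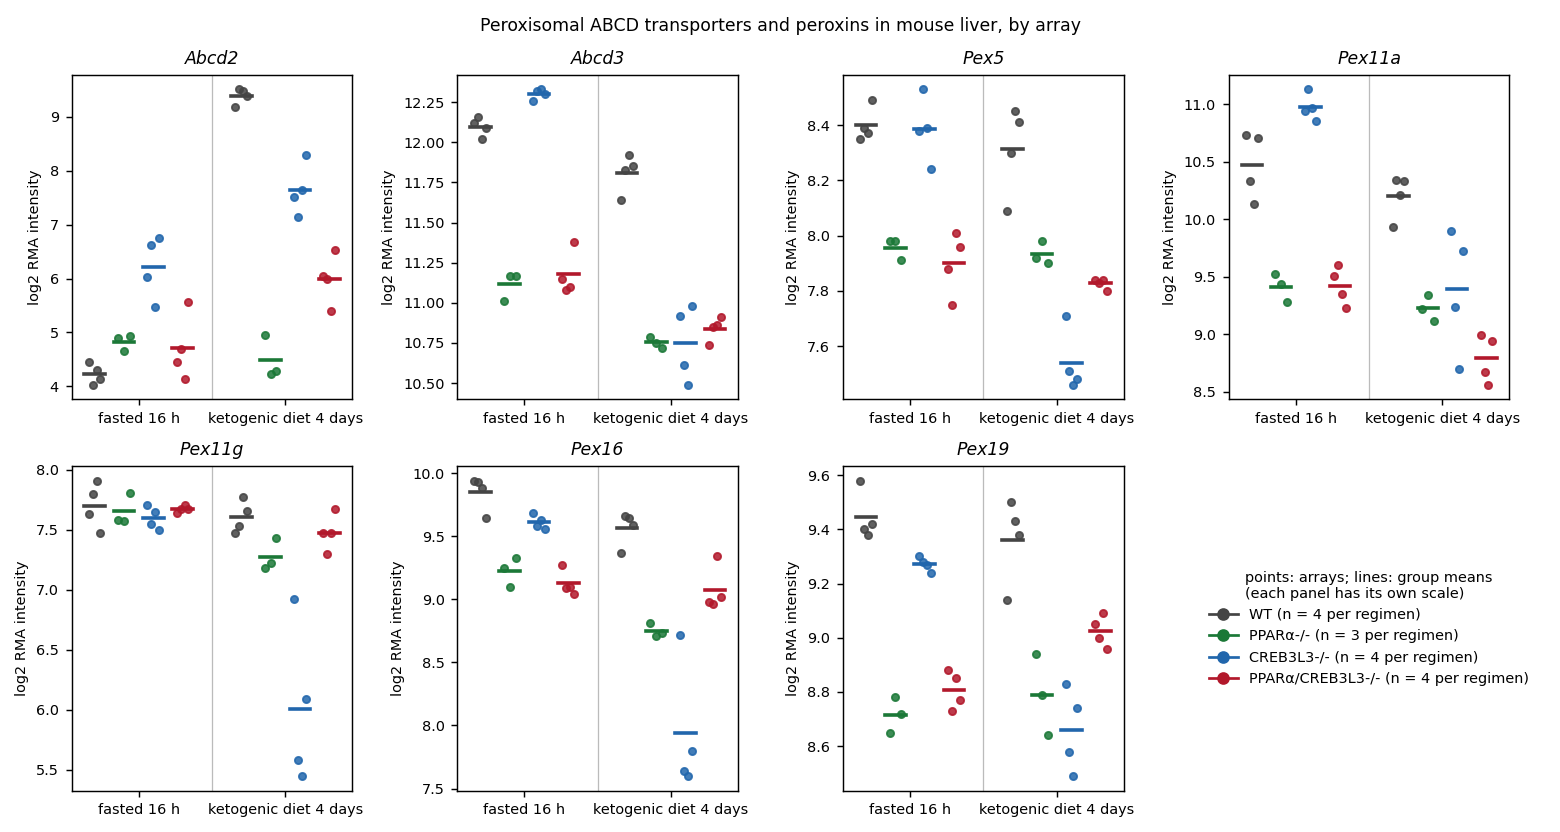
Log2 RMA intensity (y axis, a separate scale in each panel) of the 7 genes in every array, fasted on the left and ketogenic diet on the right of each panel; points are arrays, lines are group means and colours are genotypes (WT, CREB3L3-/- and PPARα/CREB3L3-/- n = 4, PPARα-/- n = 3). *Abcd2* is highest in the 4 WT arrays on the diet (9.18 to 9.51), and *Pex11g* is lowest in the 4 CREB3L3-/- arrays on the diet (5.45 to 6.92).

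*Abcd3* codes for PMP70, an abundant peroxisomal membrane transporter of long chain, branched chain and dicarboxylic acyl-CoA. In fasted WT livers *Abcd3* read 12.12, 12.16, 12.02 and 12.09. Fasted PPARα-/- livers read 11.01, 11.17 and 11.17, and PPARα/CREB3L3-/- livers 11.15, 11.08, 11.10 and 11.38. Every fasted liver without PPARα lay below every fasted liver with it. The differences from WT were -0.98 (SE 0.09, 1.97-fold, adjusted p = 3.59e-08) and -0.92 (SE 0.08, 1.89-fold, adjusted p = 1.65e-08), while CREB3L3-/- livers, at 12.26 to 12.33, were 0.21 above WT (SE 0.08, adjusted p = 0.292) without passing the test. 

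On the ketogenic diet *Abcd3* was at 11.64, 11.83, 11.92 and 11.85 in WT. CREB3L3-/- livers read 10.92, 10.61, 10.49 and 10.98, which overlapped the PPARα-/- (10.72 to 10.79) and PPARα/CREB3L3-/- (10.74 to 10.91) arrays. No array of the 3 knockouts reached WT. The differences from WT were -1.06 (SE 0.08, adjusted p = 1.05e-10) in CREB3L3-/- and -1.05 (SE 0.09, adjusted p = 1.32e-09) in PPARα-/- livers. In the combined knockout the difference was -0.97 (SE 0.08, adjusted p = 8.95e-10). Between PPARα/CREB3L3-/- and PPARα-/- the difference on the diet was 0.08, with an interval of -0.10 to 0.27. The effect of CREB3L3 loss on *Abcd3* differed with and without PPARα, by 1.14 (SE 0.12, adjusted p = 7.31e-08).

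*Pex5* is the cycling receptor that carries most matrix enzymes into the peroxisome. It changed less than the transporters, with group means within 0.86 of each other. Fasted WT livers read 8.35, 8.39, 8.37 and 8.49, and fasted PPARα-/- livers 7.98, 7.98 and 7.91. PPARα loss went with less *Pex5* in the fast, by 0.44 (SE 0.08, adjusted p = 0.00113) alone and by 0.50 (SE 0.08, adjusted p = 4.94e-05) together with CREB3L3 loss, whereas CREB3L3-/- livers (8.24 to 8.53) differed from WT by -0.02 (95% interval -0.18 to 0.14).

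The lowest *Pex5* values of the series were those of CREB3L3-/- livers on the ketogenic diet, at 7.71, 7.51, 7.46 and 7.48. WT livers on the diet read 8.09, 8.30, 8.45 and 8.41. The difference was -0.77 (SE 0.08, 1.71-fold, adjusted p = 5.60e-09). PPARα-/- livers differed from WT by -0.38 (SE 0.08, adjusted p = 0.00129), a call lost with the arrays of the regimen or of the groups alone, and the combined knockout by -0.49 (SE 0.08, adjusted p = 1.94e-05). All 4 combined knockout arrays, at 7.80 to 7.84, were above those of CREB3L3-/- livers. That step of 0.29 (SE 0.08, adjusted p = 0.00448) passed the criteria only narrowly. The call was lost with the arrays of the regimen or of the groups alone, with IBMT (the study's own statistic), with the replicate block, without the intensity trend, after median centring, with probe sets of 1 symbol alone and in 21 of the 30 fits that left out 1 array.

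*Pex16* and *Pex19* act in building the peroxisomal membrane. Pex19 binds newly made membrane proteins in the cytosol, and Pex16 is a membrane protein that takes part in their insertion. In fasted livers *Pex19* read 9.58, 9.40, 9.38 and 9.42 in WT and 8.65, 8.78 and 8.72 in PPARα-/-. The fasted PPARα/CREB3L3-/- arrays were at 8.88, 8.73, 8.85 and 8.77. Livers without PPARα had less *Pex19*, by 0.73 (SE 0.08, adjusted p = 2.31e-06) and 0.64 (SE 0.08, adjusted p = 2.55e-06) below WT. CREB3L3-/- livers, at 9.24 to 9.30, lay just under the WT arrays, and the difference of -0.17 (SE 0.08, adjusted p = 0.383) was not called.

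On the diet *Pex19* had its lowest mean in CREB3L3-/- livers, at 8.83, 8.58, 8.49 and 8.74, against 9.14, 9.50, 9.43 and 9.38 in WT. The difference from WT was -0.70 (SE 0.08, adjusted p = 5.12e-08) there. It was -0.57 (SE 0.08, adjusted p = 1.25e-05) with PPARα lost and -0.34 (SE 0.08, adjusted p = 0.00206) with both lost. The last of these calls was lost without WT replicate 2, WT replicate 3 or combined knockout replicate 4 of the diet, with differences of -0.29 to -0.31. It was also lost with the arrays of the regimen or of the groups alone and after repeated quantile normalization, where the difference was -0.25 (adjusted p = 0.031). The combined knockout arrays, at 8.96 to 9.09, were all above those of either single knockout, by 0.36 over CREB3L3-/- (SE 0.08, adjusted p = 0.000616, lost with the arrays of the regimen or of the groups alone) and by 0.24 over PPARα-/- (SE 0.08, adjusted p = 0.138, not called).

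*Pex16* read 9.94, 9.93, 9.88 and 9.64 in fasted WT livers. It was 0.62 (SE 0.16, adjusted p = 0.0208) lower in fasted PPARα-/- livers, at 9.25, 9.10 and 9.33, and 0.72 (SE 0.15, adjusted p = 0.00176) lower in PPARα/CREB3L3-/- livers, at 9.27, 9.09, 9.10 and 9.04. The first of these calls was lost without the intensity trend, after repeated quantile normalization and with 11 of the 30 arrays left out in turn, where the difference ran from -0.56 to -0.67. On the diet WT livers read 9.37, 9.66, 9.64 and 9.59 and CREB3L3-/- livers 8.72, 7.64, 7.60 and 7.80. *Pex16* was thus 1.62 lower (SE 0.15, 3.08-fold, adjusted p = 2.03e-09) in CREB3L3-/- livers, with replicate 1 about 1 unit above the other 3. Without replicate 1 the difference was -1.88 (SE 0.09). 

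Loss of PPARα went with a smaller change of *Pex16* on the diet, by -0.81 (SE 0.16, adjusted p = 0.000588) in PPARα-/- livers, at 8.81, 8.71 and 8.73, and this call was lost with the arrays of the regimen alone (adjusted p = 0.0152). In PPARα/CREB3L3-/- livers, at 8.98, 8.96, 9.34 and 9.02, the difference of -0.49 (SE 0.15, adjusted p = 0.0192) was not called although no array reached the WT range, and it was called without CREB3L3-/- replicate 1 of the diet (adjusted p = 7.96e-05). *Pex16* was higher in the combined than in the CREB3L3 knockout by 1.13 (SE 0.15, 2.19-fold, adjusted p = 1.02e-06).

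The Pex11 proteins bend and elongate the peroxisomal membrane ahead of division, and *Pex11a* is the member of this family known to be induced by PPARα. In fasted livers *Pex11a* was at 10.73, 10.33, 10.13 and 10.71 in WT and at 9.52, 9.44 and 9.28 in PPARα-/-. The PPARα/CREB3L3-/- livers read 9.51, 9.60, 9.35 and 9.23, and the CREB3L3-/- livers 10.94, 11.13, 10.97 and 10.85. Livers lacking PPARα were separated from the rest, at -1.06 (SE 0.19, 2.09-fold, adjusted p = 0.000861) and -1.05 (SE 0.18, 2.07-fold, adjusted p = 0.00017) against WT. CREB3L3-/- livers were above all WT arrays, and the difference of 0.50 (SE 0.18, adjusted p = 0.203) did not pass.

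On the ketogenic diet *Pex11a* was lower in all 3 knockouts than in WT (9.93, 10.34, 10.21 and 10.33). It was lowest in PPARα/CREB3L3-/- livers, at 8.99, 8.67, 8.56 and 8.94, with a difference of -1.41 (SE 0.18, 2.66-fold, adjusted p = 6.98e-07). PPARα-/- livers (9.11 to 9.34) differed by -0.98 (SE 0.19, adjusted p = 0.000421). CREB3L3-/- livers (9.90, 9.24, 8.70 and 9.72) differed by -0.81 (SE 0.18, adjusted p = 0.000626). The CREB3L3-/- arrays were the most scattered of any *Pex11a* group (SD 0.54), and that call was lost when only the arrays of the regimen or of the groups were fitted. *Pex11a* was the 1 gene of the 7 whose interaction on the diet did not pass, at 0.38 (95% interval -0.15 to 0.92).

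*Pex11g*, another member of the family, was not called in any comparison of PPARα-/- with WT livers. In the fast the 15 arrays of all 4 genotypes ran from 7.47 to 7.91 and no knockout was called, the largest difference from WT being -0.10 (95% interval -0.48 to 0.28) in CREB3L3-/- livers. On the diet WT livers read 7.47, 7.53, 7.77 and 7.66, PPARα-/- livers 7.18, 7.22 and 7.43, and PPARα/CREB3L3-/- livers 7.47, 7.30, 7.47 and 7.67. Only CREB3L3-/- livers stood apart from these, at 6.92, 5.58, 5.45 and 6.09. *Pex11g* fell there by 1.60 on the log2 scale against WT (SE 0.19, 3.03-fold, adjusted p = 9.13e-08), whereas the differences were -0.33 (-0.74 to 0.08) in PPARα-/- and -0.13 (-0.51 to 0.25) in PPARα/CREB3L3-/- livers. The combined knockout was 1.47 (SE 0.19, 2.77-fold, adjusted p = 4.70e-07) above the CREB3L3 knockout. Replicate 1 was again the highest of the CREB3L3-/- arrays, and the difference from WT without it was -1.90 (SE 0.12).

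**Figure D2:**
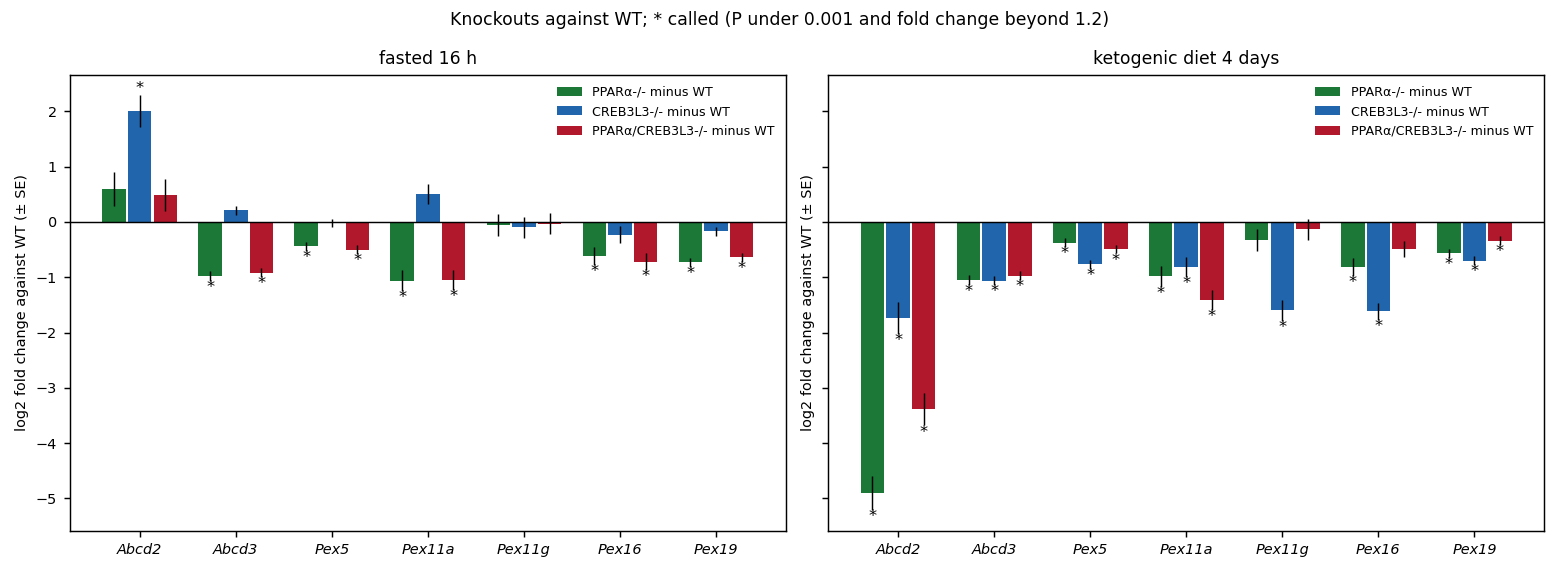
Log2 fold change of each knockout against WT of the same regimen (y axis; bars, with SE as error bars) for the 7 genes, fasted on the left and ketogenic diet on the right; an asterisk marks a call (P under 0.001, fold change beyond 1.2). In the fast the CREB3L3-/- bars are within 0.50 of 0 except for *Abcd2* at 2.0, and on the diet every bar points down.

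A gene was called when P was under 0.001 and it changed by more than 1.2-fold. Of the 7 genes 5 were lower and 0 higher in fasted PPARα-/- livers, where 4.00% of all probe sets were called. In fasted PPARα/CREB3L3-/- livers the same 5, *Abcd3*, *Pex5*, *Pex11a*, *Pex16* and *Pex19*, were lower, beside 6.98% of all probe sets. In fasted CREB3L3-/- livers *Abcd2* was the 1 called, and higher, beside 1.39%. Fasted PPARα/CREB3L3-/- livers differed from PPARα-/- livers in 0 of the 7 by limma, and in 0 at an unadjusted level of 0.05, beside 1.67% of probe sets called. Against fasted CREB3L3-/- livers they were lower in 5, namely *Abcd2*, *Abcd3*, *Pex5*, *Pex11a* and *Pex19*, beside 5.28%. The *Abcd2* arrays of these groups overlapped, and its call was lost with the arrays of the groups alone (adjusted p = 0.032 by limma). The interaction in the fast was called for *Abcd2* alone, beside 0.762%. In fasted PPARα-/- livers the arrays of 6 of the 7 genes did not overlap WT, which held for 18.5% of all probe sets, and in fasted CREB3L3-/- livers those of 4, against 8.30%.

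Against WT, each knockout had more calls over all probe sets on the ketogenic diet than in the fast. Among the 7 there were more in PPARα-/- and CREB3L3-/- livers, and 5 under both regimens in PPARα/CREB3L3-/- livers. PPARα-/- livers were lower than WT in 6 genes, all but *Pex11g*, beside 10.9% of all probe sets called. CREB3L3-/- livers were lower in all 7, beside 21.4% of all probe sets called and 8.56% of all probe sets called lower. PPARα/CREB3L3-/- livers were lower in 5, all but *Pex11g* and *Pex16*, beside 14.0%. The 7 had a median log2 fold change of -0.81, -1.06 and -0.49 in these comparisons, where the median of all probe sets was 0.006, -0.065 and 0.014. Adding the loss of CREB3L3 to that of PPARα changed 1 gene, *Abcd2*, beside 2.42% of all probe sets. Adding the loss of PPARα to that of CREB3L3 went with more *Pex5*, *Pex11g*, *Pex16* and *Pex19* and with less *Abcd2*, beside 20.4%. In that comparison 4 of 8 hepatocyte markers were higher (median 0.17). Lower were 7 of 8 macrophage (median -1.37), 5 of 7 stellate (median -1.31), 4 of 6 endothelial, 1 of 6 adipocyte and 1 of 5 cholangiocyte markers. Among all probe sets 8.72% were called higher and 11.7% lower there, and the part of these markers was not tested. All knockouts of a regimen were set against the same WT arrays, so the comparisons are not independent of each other.

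Markers of cell types moved in the same arrays. On the diet 6 of 8 hepatocyte markers were lower in CREB3L3-/- than in WT livers, with a summed log2 level of 14.87 to 15.44 against 15.82 to 15.91, and replicate 1, highest for *Pex16* and *Pex11g* in its group, was the highest here too. Of the other lists, 5 of 7 stellate cell markers (11.57 to 12.07 against 11.27 to 11.44), 2 of 8 macrophage markers (12.12 to 12.34 against 11.28 to 11.86), 2 of 5 cholangiocyte markers (8.28 to 9.07 against 7.06 to 7.40), 2 of 6 adipocyte markers (7.50 to 9.59 against 6.57 to 6.74, with *Adipoq* at 2.44 to 2.71) and 1 of 6 neutrophil markers (6.91 to 10.16 against 6.24 to 7.45) were higher in these livers, and 1 of 3 erythroid markers (6.21 to 7.22 against 8.13 to 8.67) was lower. Among all probe sets 12.8% were called higher and 8.56% lower there. The mean of the adipocyte marker *Fabp4* was 7.97 against 5.86 in WT, while those of *Adipoq*, *Plin1*, *Lep* and *Retn* were below WT. Endothelial markers gave 1 lower and 1 higher of 6, and B and plasma cell markers 1 lower of 4. In PPARα-/- and PPARα/CREB3L3-/- livers on the diet 5 of 8 hepatocyte markers (15.52 to 15.54 and 15.45 to 15.67) and 5 of 8 macrophage markers (10.35 to 10.82 and 10.26 to 10.87) were lower than in WT. In the same lines 2 of 7 stellate markers (10.83 to 11.06 and 10.89 to 11.35 against 11.27 to 11.44) and 1 of 3 erythroid markers (6.10 to 6.35 and 6.17 to 6.62 against 8.13 to 8.67) were lower. Of 6 markers of sinusoidal endothelium 1 was lower in PPARα-/- (10.66 to 10.77), and 4 were lower and 1 higher in PPARα/CREB3L3-/- livers (10.16 to 10.84), all of whose arrays were below those of WT (highest 11.18). Of 6 T and NK cell markers 2 and 1 were lower, and of 4 B and plasma cell markers 2 and 1. Among all probe sets 4.81% and 6.87% were called lower in these lines, and 6.11% and 7.11% higher. In fasted livers no hepatocyte marker was called in PPARα-/- or PPARα/CREB3L3-/- and 1 of 8 was lower in CREB3L3-/- livers. Among all probe sets 1.77%, 2.79% and 0.599% were called lower in these groups. The part of these shifts in the values of the 7 genes was not tested.

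The interaction compares the effect of CREB3L3 loss in livers without PPARα with its effect in livers with it. On the ketogenic diet it was positive and called for 6 of the 7 genes, beside 15.9% of all probe sets. In the same contrast 5 of 8 hepatocyte markers were higher (median 0.70), 4 of 7 stellate markers lower (median -1.02), 1 of 6 adipocyte and 1 of 8 macrophage markers lower and 1 of 3 erythroid markers higher, and their part was not tested. Among all probe sets 5.94% were called higher and 10% lower in this contrast. The values of the 7 genes follow. Beyond *Abcd3*, the interaction was 3.24 (SE 0.42, adjusted p = 1.45e-06) for *Abcd2*, 1.95 (SE 0.22, adjusted p = 1.98e-07) for *Pex16* and 1.80 (SE 0.27, adjusted p = 1.22e-05) for *Pex11g*. For *Pex19* it was 0.94 (SE 0.12, adjusted p = 6.41e-07) and for *Pex5* 0.67 (SE 0.11, adjusted p = 4.67e-05). For these 6 genes CREB3L3 loss went with a lower level in the line that carries PPARα, where *Ppara* itself was lower, whereas without PPARα the combined knockout differed from PPARα-/- by a call for *Abcd2* alone, which was higher. The *Abcd2* interaction had opposite signs in the fast and on the diet. On the diet the PPARα-/- mean of *Abcd2* (4.48) was near the array medians, where a further fall may not be visible. The change measured there with CREB3L3 loss was a rise, of 1.51 (SE 0.31, adjusted p = 0.00777).

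**Figure D3:**
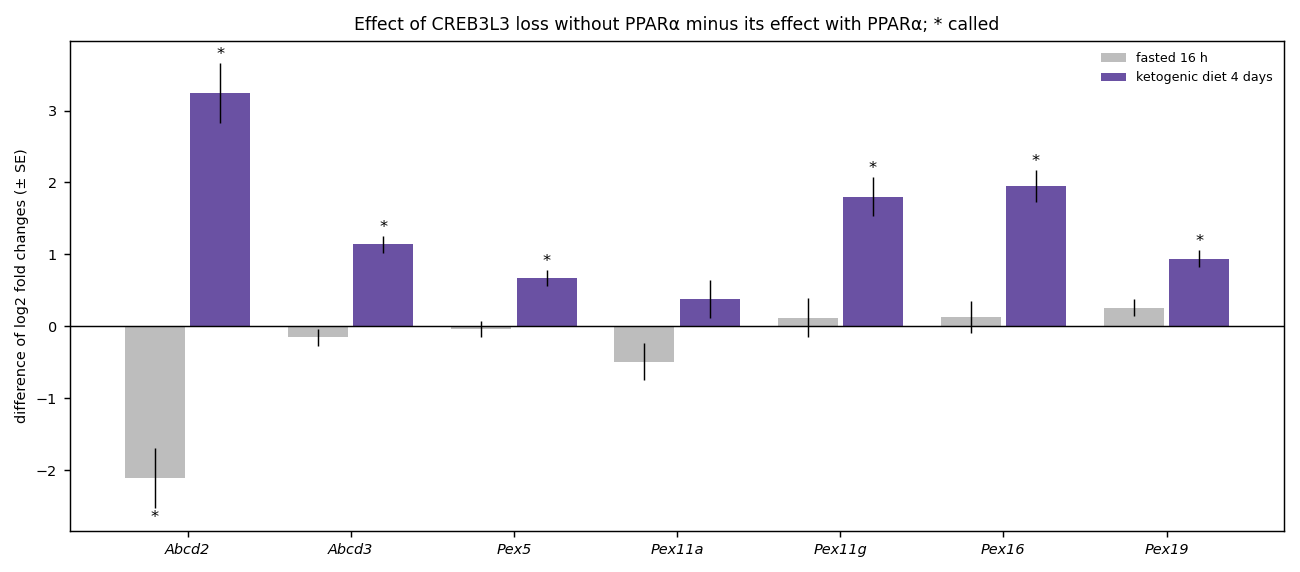
Effect of CREB3L3 loss without PPARα minus its effect with PPARα, as a difference of log2 fold changes (y axis; bars, with SE), for the 7 genes in the fast and on the ketogenic diet; an asterisk marks a call. On the diet the bars lie between 0.38 and 3.24, and in the fast *Abcd2* alone is called, at -2.11.

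Within a genotype, the diet was set against the fast to see how far each gene depends on the regimen. In WT livers *Abcd2* was the 1 gene of the 7 called, beside 4.25% of all probe sets, and the other 6 differed by -0.29 to -0.08. The *Abcd3* difference of -0.29 (SE 0.08, adjusted p = 0.0323) missed the criteria, and passed them with either replicate 3 or replicate 4 of CREB3L3-/- livers on the diet left out. In PPARα-/- livers *Abcd3* was 0.36 lower on the diet (SE 0.10, adjusted p = 0.00832) as the 1 call, beside 10.2%. That call was lost in 16 of the 30 fits without 1 array and after median centring. *Abcd2* had a difference of -0.34 in PPARα-/- livers, with an interval of -1.03 to 0.34. On the diet PPARα-/- livers had 5 of 8 hepatocyte markers (median -0.58) and 6 of 8 macrophage markers (median -1.03) lower than in the fast. Also lower were 2 of 7 stellate, 2 of 6 endothelial, 1 of 6 T and NK cell and 1 of 3 erythroid markers, beside 4.46% of all probe sets. The part of these markers was not tested.

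In CREB3L3-/- livers all 7 genes were called between the regimens, beside 25.4% of all probe sets. In this comparison 5 of 8 hepatocyte markers were lower (median -0.66), 5 of 8 macrophage markers higher, 5 of 7 stellate markers higher and 1 lower, 2 of 5 cholangiocyte, 1 of 6 neutrophil and 1 of 6 adipocyte markers higher, and 2 of 6 endothelial and 1 of 3 erythroid markers lower. Among all probe sets 11.1% were called lower and 14.3% higher. The summed hepatocyte level was 14.87 to 15.44 on the diet against 15.83 to 15.91 in the fast, and that of macrophages 12.12 to 12.34 against 11.01 to 11.30, and their part was not tested. In WT 0 of 8 hepatocyte markers were called by limma, with a median of -0.02. *Abcd2* was 1.43 higher on the diet (SE 0.29, adjusted p = 0.000215), a call lost with the arrays of these groups alone. The other 6 were lower: *Pex16* by 1.67 (SE 0.15), *Pex11g* by 1.59 (SE 0.19), *Pex11a* by 1.58 (SE 0.18), *Abcd3* by 1.55 (SE 0.08), *Pex5* by 0.84 (SE 0.08) and *Pex19* by 0.61 (SE 0.08), with adjusted p from 7.36e-14 to 3.93e-07. In PPARα/CREB3L3-/- livers 2 were called, beside 14.5%. *Abcd2* was higher by 1.28 (SE 0.29, adjusted p = 0.00141) and *Abcd3* lower by 0.34 (SE 0.08, adjusted p = 0.00323), and the arrays of the regimens overlapped for *Abcd2*. The *Abcd2* call was lost without combined knockout replicate 3 of the fast or replicate 4 of the diet, at 1.09 and 1.1, and with the arrays of these groups alone. The *Abcd3* call was lost without replicate 4 of the fast or replicate 1 or 2 of the diet, at -0.27 to -0.34, with the arrays of these groups alone, without the intensity trend and after median centring, at -0.26. *Pex11a*, at -0.63 (SE 0.18, adjusted p = 0.00937), was called without CREB3L3-/- replicate 1 or 3 of the diet. PPARα/CREB3L3-/- livers had 5 of 8 hepatocyte markers (median -0.43) lower on the diet than in the fast, and 6 of 8 macrophage markers lower and 1 higher. Also lower were 5 of 6 endothelial, 2 of 7 stellate and 1 of 3 erythroid markers, beside 7.09% of all probe sets. The part of these markers was not tested.

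The effects of the knockouts themselves were then compared between the regimens. The CREB3L3-/- effect was more negative on the diet than in the fast for all 7 genes, by 0.53 (*Pex19*) to 3.73 (*Abcd2*). Among all probe sets 13.8% were called in this contrast, 5.78% lower and 7.99% higher. In the same contrast 5 of 8 hepatocyte markers (median -0.63) and 1 of 3 erythroid markers were lower. Higher were 4 of 7 stellate, 2 of 8 macrophage and 1 of 6 adipocyte markers, and the part of these markers was not tested. The PPARα-/- effect differed for *Abcd2* alone, by -5.50 (SE 0.44, adjusted p = 1.97e-08), with 2 probe sets further down, beside 4.83%. The other 6 differed by -0.28 to 0.16 and were not called. In the same way the PPARα/CREB3L3-/- effect differed for *Abcd2*, by -3.88 (SE 0.41, adjusted p = 1.80e-07), beside 8.26%, while the other 6 lay between -0.36 and 0.30. For the PPARα-/- effect 5 of 8 hepatocyte, 4 of 8 macrophage, 1 of 6 endothelial and 1 of 3 erythroid markers were lower. For the PPARα/CREB3L3-/- effect 5 of 8 hepatocyte, 5 of 8 macrophage and 3 of 6 endothelial markers were lower. So were 1 of 7 stellate, 1 of 6 T and NK cell and 1 of 3 erythroid markers. The part of these markers was not tested. Fasted WT livers were at the level of the array medians for *Abcd2*, so a fall with PPARα loss may not be visible in the fast. These *Abcd2* differences therefore do not tell whether the effect of PPARα loss is confined to the diet.

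**Figure D4:**
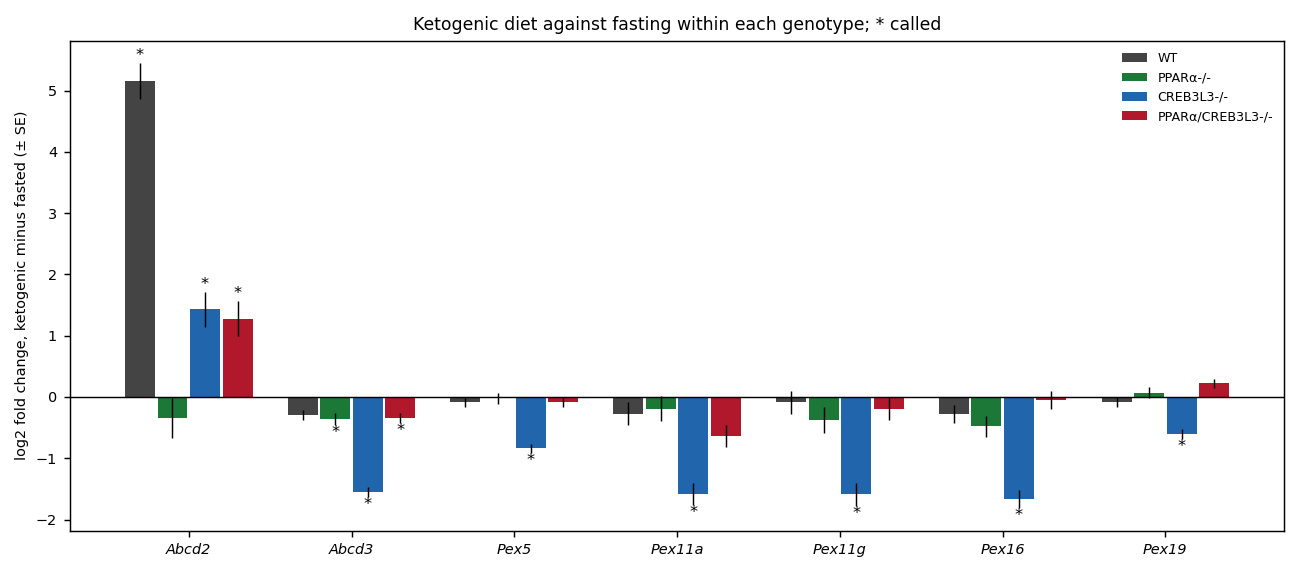
Log2 fold change of the ketogenic diet against the fast within each genotype (y axis; bars, with SE) for the 7 genes; an asterisk marks a call. *Abcd2* is at 5.16 in WT, and 6 of the 7 genes are called lower in CREB3L3-/- livers, from -0.61 to -1.67.

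The rest of the peroxisome was followed through 4 lists, of which 72 genes were measured. Among all probe sets, 1.77% were called lower in fasted PPARα-/-, 0.599% in fasted CREB3L3-/- and 2.79% in fasted PPARα/CREB3L3-/- livers. On the diet these shares were 4.81%, 8.56% and 6.87%, and those called higher 6.11%, 12.8% and 7.11%. Among 9 other peroxins in fasted PPARα-/- livers *Pex14*, the docking protein for Pex5, was the 1 called, lower by 0.50 (SE 0.10, adjusted p = 0.00247), and in fasted PPARα/CREB3L3-/- livers *Pex14* and *Pex3*, the membrane partner of Pex19, were lower. In fasted CREB3L3-/- livers 0 of 9 were called by limma, with 1 of 9 at an unadjusted p under 0.05. On the diet 6 of 9 were lower in CREB3L3-/- livers (median -0.60 on the log2 scale), against 2 in PPARα-/- and 3 in PPARα/CREB3L3-/- livers with medians of -0.19 and -0.26. *Pex6*, an ATPase that recycles Pex5, differed from WT by -1.48 (SE 0.13, adjusted p = 1.13e-09) in CREB3L3-/- livers. It differed by -0.91 (SE 0.14, adjusted p = 2.90e-05) in PPARα-/- livers and by -1.15 (SE 0.13, adjusted p = 1.74e-07) in the combined knockout. *Pex7*, the receptor for the other import signal, was lower by 1.11 (SE 0.07, adjusted p = 4.88e-12) in CREB3L3-/- livers and was not called in the lines without PPARα.

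Of 20 β-oxidation enzymes 11 were, in the fast, lower in PPARα-/- livers and 11 in PPARα/CREB3L3-/- livers, with medians of -0.87 and -0.70, and 0 of 20 were called in CREB3L3-/- livers by limma, with 6 of 20 at an unadjusted p under 0.05. *Decr2*, which handles polyunsaturated substrates, was lower by 2.04 (SE 0.12, adjusted p = 1.04e-11) in fasted PPARα-/- livers, and *Hsd17b4*, the multifunctional enzyme for branched acyl-CoA, by 1.33 (SE 0.09, adjusted p = 2.32e-10). On the diet 12 were lower and 2 higher in PPARα-/-, 15 lower and 1 higher in CREB3L3-/-, and 14 lower and 1 higher in PPARα/CREB3L3-/- livers. The shares of all probe sets called lower there were 4.81%, 8.56% and 6.87%. *Decr2* was then lower by 2.15 (SE 0.11, adjusted p = 4.77e-14) in CREB3L3-/- and by 2.53 (SE 0.12, adjusted p = 8.68e-14) in PPARα-/- livers.

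Of 27 other matrix enzymes, 9 were lower in fasted PPARα-/- livers, 7 in fasted PPARα/CREB3L3-/- livers and 0 in fasted CREB3L3-/- livers by limma, with 1 at an unadjusted p under 0.05. On the diet 19 were lower and 2 higher in CREB3L3-/- livers, at a median of -1.29, against 16 lower in PPARα-/- (median -0.67) and 18 lower in PPARα/CREB3L3-/- livers (median -0.73). The shares of all probe sets called lower there were 8.56%, 4.81% and 6.87%, and those called higher 12.8%, 6.11% and 7.11%. *Agxt*, which detoxifies glyoxylate, was lower in CREB3L3-/- livers by 3.55 (SE 0.19, 11.7-fold, adjusted p = 1.04e-13), and *Baat*, which conjugates bile acids, by 2.41 (SE 0.15, adjusted p = 2.36e-12). Among 16 other membrane and fission proteins the calls went both ways: on the diet 7 were lower and 3 higher in CREB3L3-/- livers, 5 lower and 1 higher in PPARα-/- livers, and 5 lower and 2 higher in PPARα/CREB3L3-/- livers. *Acbd5*, a tether of peroxisomes to the endoplasmic reticulum, was lower by 1.53 (SE 0.13, adjusted p = 3.40e-10) in CREB3L3-/- and by 1.11 (SE 0.14, adjusted p = 8.69e-07) in PPARα-/- livers. *Pxmp2*, a channel protein of the membrane, was lower in CREB3L3-/- livers under both regimens, by 0.51 (SE 0.13, adjusted p = 0.0424) in the fast and by 2.03 (SE 0.13, adjusted p = 2.88e-12) on the diet.

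**Figure D5:**
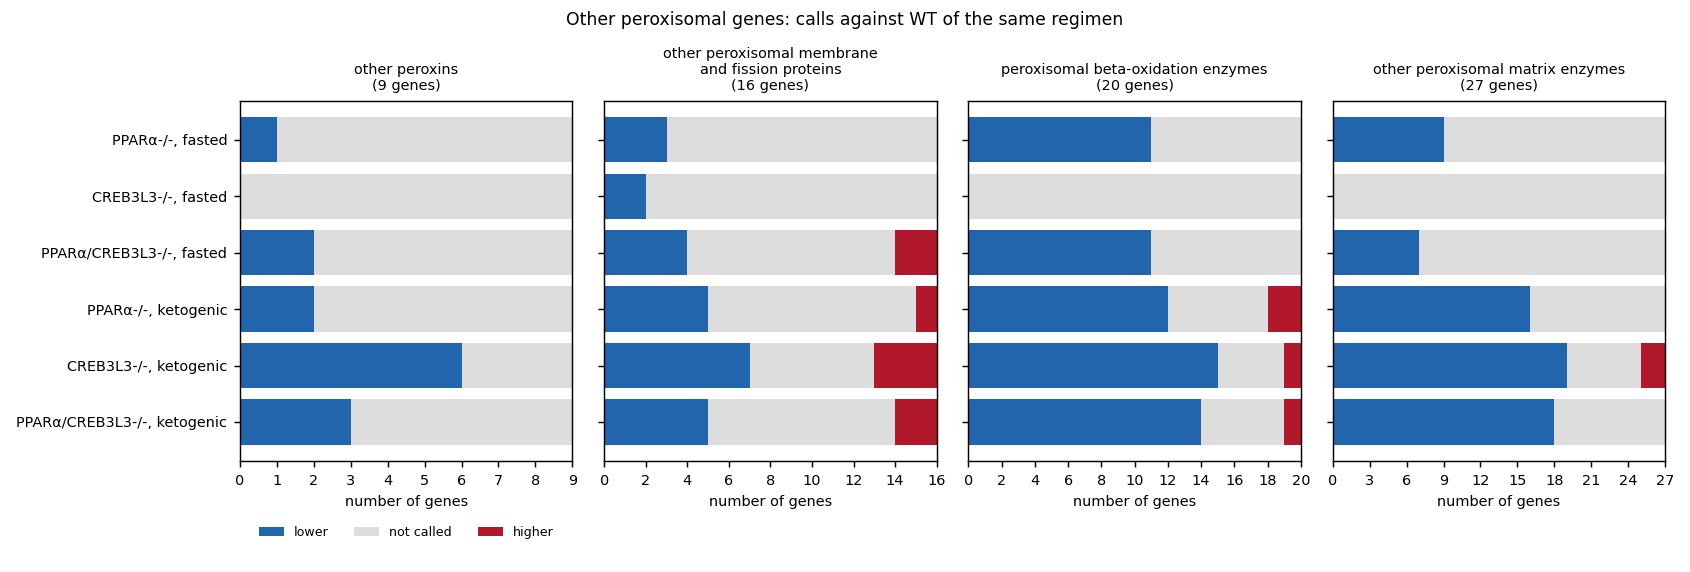
Number of genes called lower, not called and called higher (x axis, stacked bars) against WT of the same regimen in 4 lists of other peroxisomal genes, for each knockout and regimen (y axis). In the fast no list holds a call for CREB3L3-/- livers except 2 membrane proteins called lower, and on the diet 6 peroxins, 15 β-oxidation enzymes and 19 other matrix enzymes are lower in that line. Of all probe sets 0.599% were called lower in that line in the fast and 8.56% on the diet.

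Over the 30 arrays the 7 genes did not all vary together. *Abcd3* correlated with *Pex11a* at r = 0.923 and with *Pex5* at 0.902, and *Pex11g* with *Pex16* at 0.888. *Abcd2* correlated with none of the other 6 beyond -0.319 to 0.174. After each group's mean was subtracted, *Pex11g* and *Pex16* correlated at 0.839, a value that rests on CREB3L3-/- livers on the diet: it was 0.410 over the 26 arrays of the other groups and 0.478 without replicate 1 of that group. These coefficients describe 30 arrays in 8 groups that share treatment and tissue. The genes most like each in pattern, by Pearson correlation over the 30 arrays among all genes with 1 symbol, were *Lsm6* (0.826), *Gnas* (0.819) and *Adgrl3* (0.799) for *Abcd2*. They were *Decr1*, *Cpox* and *Slc25a42* for *Abcd3* (0.963 to 0.967), *Slc25a42*, *Mpst* and *Ccs* for *Pex5* (0.940 to 0.941) and *Cpox*, *Elmod3* and *Adtrp* for *Pex11a* (0.938 to 0.951). For *Pex11g* they were *Cyp2d10*, *Hpd* and *Apoh* (0.976 to 0.980), for *Pex16* *Gcdh*, *Mlycd* and *Cox6c* (0.942 to 0.951), and for *Pex19* *Rab43*, *Eci1* and *Chchd2* (0.902 to 0.920).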

How the data were processed

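Total RNA of single livers was hybridized to Affymetrix Mouse Gene 1.1 ST arrays. The values deposited by the authors are RMA expression estimates on the log2 scale, made with AffyPLM, and no version is named in the sources used here. Probe set identifiers are those of the manufacturer, although a remapped chip definition is given in the methods, and genes were named from GEO's platform annotation. The labelling kit differs between the labels and the methods. No value column was left out (0 unused).

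Here limma 3.58.1 in R 4.3.3 estimated 1 mean for each of 8 groups, an intensity trend, and 22 residual and 3.47 prior degrees of freedom. The study's criteria for a call were kept (P under 0.001, more than 1.2-fold). Adjusted p are Benjamini-Hochberg values over 35556 probe sets of each of 19 comparisons. The code was tested on simulated data. Figures used Python 3.11.15 and matplotlib 3.10.9. The number of arrays limits the precision.

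The 7 genes and the lists of peroxisomal and cell type genes were chosen with earlier results of these data known. Named genes are the 7, their 3 most correlated genes, up to 4 members of each list by lowest P, chromosomal neighbours on GRCm38.p6, *Creb3l3* and *Ppara*. Of 81 genes in the 4 peroxisomal lists 72 were measured, each on its brightest probe set. Alternatives were subsets of arrays, a replicate block, array weights, other variance priors (IBMT included), median centring, repeated quantile normalization, filters on dim probe sets, other thresholds and each array left out in turn. The correlation of *Pex11g* with *Pex16* without 1 group or array was added after seeing the data.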

Additional observations from a re-analysis of the deposited data

Results flagged for a closer look

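In 42 combinations of a gene and a group of 4 arrays, 1 array stood apart from its group by the 95% limit for such gaps: *Pex16* in replicate 3 of PPARα/CREB3L3-/- livers on the ketogenic diet, at 9.34 where the other 3 were at 8.96 to 9.02. Chance alone gives such a gap in about 1 in 20 groups.

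Of 35 tested differences between effects, 16 were called. Among all probe sets 0.762% were called for the interaction in the fast and 15.9% for that on the diet. For the effects compared between the regimens the shares were 13.8% (CREB3L3-/-), 4.83% (PPARα-/-) and 8.26% (PPARα/CREB3L3-/-). The effect of CREB3L3 loss depended on the presence of PPARα for *Abcd2* in the fast (-2.11), and on the diet for *Abcd2* (3.24), *Pex16* (1.95), *Pex11g* (1.80), *Abcd3* (1.14), *Pex19* (0.94) and *Pex5* (0.67). The CREB3L3-/- effect was more negative on the diet than in the fast for *Abcd2* (-3.73), *Pex11g* (-1.50), *Pex16* (-1.39), *Pex11a* (-1.31), *Abcd3* (-1.27), *Pex5* (-0.75) and *Pex19* (-0.53). For *Abcd2* the PPARα-/- and PPARα/CREB3L3-/- effects differed between the regimens as well, by -5.50 and -3.88. All are differences of log2 fold changes, and those of a regimen share WT arrays. *Abcd2* in fasted WT livers and in PPARα-/- livers was at or near the array medians, so a fall from these levels may not be visible.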

How the results depend on the processing

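No called value of the 7 genes changed direction under any alternative. Without 1 array, the number of genes called stayed within 1.5 times in 16 of 19 comparisons. The diet against the fast ranged from 1 to 2 in WT (1 before), from 0 to 2 in PPARα-/- (1) and from 1 to 3 in PPARα/CREB3L3-/- livers (2). A fold beyond 2 left 1 of 5 in fasted PPARα-/-, 1 of 5 in fasted PPARα/CREB3L3-/-, 3 of 5 against fasted CREB3L3-/-, and on the diet 2 of 6 in PPARα-/-, 4 of 7 in CREB3L3-/-, 2 of 5 in PPARα/CREB3L3-/- and 3 of 5 against CREB3L3-/-. It left 0 of 1 in PPARα-/- and 1 of 2 in PPARα/CREB3L3-/- livers between the regimens. PPARα/CREB3L3-/- against CREB3L3-/- on the diet gave 3 in place of 5 with the arrays of the regimen or of the groups alone. Between the regimens, PPARα-/- livers gave 2 with those of the groups alone or with array weights, and 0 without the trend or after median centring. PPARα/CREB3L3-/- livers gave 1 with those of the groups alone, without the trend or after median centring and 4 at an adjusted p under 0.05, where WT gave 2. With the replicate block, 17 of 19 counts were the same, PPARα/CREB3L3-/- against CREB3L3-/- on the diet gave 4 in place of 5 and the diet in PPARα/CREB3L3-/- 3 in place of 2. The numbers did not pair the arrays: 2 of 51 same-numbered pairs correlated above 0.1 in their deviations (-0.111 to 0.121). Over called and uncalled differences together, the sign changed in 9 of 1813 refits and in 23 of 3990 without 1 array. Each was a difference not called, with a size of at most 0.11. Groups of 3 or 4 livers and 1 probe set per gene limit what can be seen, and small steps such as that of *Pex5* depend on the shared estimate of the spread.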

Other observations

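The genes next to the 7 on the chromosomes of GRCm38.p6 gave values of their own. *Kif21a*, beside *Abcd2*, was 0.32 (SE 0.11, adjusted p = 0.0659) higher on the diet than in the fast in WT livers, where *Abcd2* was 5.16 higher. In CREB3L3-/- livers on the diet, *Kif21a* was lower than in WT by 0.52 (SE 0.11, adjusted p = 0.000314), as *Abcd2* was, and *Arhgap29*, beside *Abcd3*, was lower by 0.62 (SE 0.17, adjusted p = 0.00439), as *Abcd3* was. *F3*, on the other side of *Abcd3*, differed there by 0.33 and *Cd163*, beside *Pex5*, by -0.31, and neither was called. *Plin1* and *Mesp1*, on either side of *Pex11a*, differed from WT on the diet by -0.08 and 0.03 in PPARα-/- livers and were not called, nor was *Wdr93*, which overlaps *Pex11a*, at 0.24. In CREB3L3-/- livers these 3 differed by -0.19, 0.05 and 0.38 and were not called. Beside *Pex11g* and *Pex16*, *Arhgef18*, *Zfp358*, *Large2* and *1700029I15Rik* were not called in CREB3L3-/- livers on the diet, at 0.27, -0.37, 0.15 and -0.34, nor was *Tex45*, which overlaps *Pex11g*, at 0.07. *Dcaf8*, beside *Pex19*, was lower in those livers by 0.58 (SE 0.05, adjusted p = 4.97e-10), and *Copa*, on its other side, was higher by 0.33 (SE 0.07, adjusted p = 0.000191). *Clstn3*, beside *Pex5*, was lower than WT on the diet in PPARα-/-, CREB3L3-/- and PPARα/CREB3L3-/- livers, by 0.53, 0.63 and 0.61. Its means on the diet (3.25 to 3.88) lay below every array median, where these files do not tell signal from background. The same holds for *Plin1*, *Mesp1* and *Tex45*.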
